A study of Mus musculus with 15 samples.

Results

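The 35 genes described here are the sarcomere, calcium, energy and myogenic factor genes of skeletal muscle, as they were measured by bulk RNA-seq in mouse mammary glands and mammary tumors. They were taken as a fixed list of symbols from the deposited expression tables, and each of the 35 was found there, among 51826 rows. By role, 9 encode myosins of the thick filament, 9 encode proteins of the thin filament, 6 belong to the Z-disc or titin system, 4 handle calcium, 4 serve energy or oxygen supply, and 3 are transcription factors of muscle precursor cells. The values are TPM, a unit of transcript abundance in which each gene is corrected for its length and each library sums to the same total, so that levels can be set side by side between genes and between libraries as shares.

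The libraries came from 13 mice. The 4 control glands (mice 133, 392, 417_3 and 517_3) were disease-free mammary glands of MMTV-Cre mice, in which the mouse mammary tumor virus promoter drives Cre recombinase in mammary epithelium. The 6 Trim24COE tumors came from mice that carried the same MMTV-Cre and a FLAG-tagged mouse Trim24 transgene, inserted by piggyBac transposition and switched on when Cre removes a floxed lacZ-stop cassette. The labels class 3 of them (64, 567 and 897) as carcinosarcoma, named metaplastic carcinosarcomas (MpCS) here, and 3 (89, 273_5 and 3956) as carcinoma. In the study's pathology records the class of tumors 89, 567 and 3956 differed between readings, and the labels' class is used here. The 3 non-TRIM24 tumors (219, FVB001 and FVB002) were carcinomas that arose spontaneously in mice of unknown genotype. The labels give the strain as FVB for all, while the series' design text also names a mixed background. Gland 133 and tumor 3956 were each sequenced again in sequencing batch 2, and the non-TRIM24 tumors were sequenced only in that batch. All other libraries are in batch 1. The ages of single mice were not analysed here.

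Skeletal muscle fibers are long fused cells packed with sarcomeres, in which myosin thick filaments pull on actin thin filaments between Z-discs when calcium binds troponin. Fast and slow fibers build these filaments from different genes of the same families, so the mixture of isoforms tells which fiber types an RNA sample holds. Satellite cells, the stem cells of muscle, are marked by Pax7. When they are activated, Myod1 and then Myog drive differentiation and fusion into new fibers, and mature fibers keep little of either. The mammary gland itself holds no skeletal muscle, but some mammary fat pads lie against muscle of the body wall, and the myoepithelial cells of the gland use smooth muscle forms of the contractile proteins.

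Trim24 itself, the targeted gene, was at 14.5 to 22.4 TPM in the 4 control glands, at 10.6 to 24.1 TPM in the 6 Trim24COE tumors and at 5.34 to 10.0 TPM in the 3 non-TRIM24 tumors. Between Trim24COE tumors and glands its levels overlapped (limma log2 fold change -0.24, SE 0.26, Benjamini-Hochberg adjusted p = 0.557), so these groups are named here by their labels alone. All 3 non-TRIM24 tumors were below all glands and all Trim24COE tumors, with a log2 fold change of -0.45 against glands (SE 0.34, adjusted p = 0.649, sequencing batch in the fit). Glands 417_3 and 517_3 were closer to each other (Spearman rho 0.972 over 15532 genes) than the first and repeat libraries of mouse 133 (0.944) or 3956 (0.961). On the log2(TPM + 1) scale, differences of over 1 unit were found in 4.08% of genes between this pair, 12.3% between the libraries of mouse 133 and 4.82% between those of 3956. Whether the pair shares a source could not be tested without counts. They were kept as the 2 mice of the labels, and if they share a source, the comparisons with glands rest on 3 gland samples.

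RefSeq promoter windows were found for 28 of the 35 genes, 37 windows in all, each running from 250 bases before to 50 bases after an annotated transcription start in the build GRCm38.p6. The windows of 4 genes on which the results turn are printed, Myog for the precursor program, Acta1 and Myh4 for mature fibers and Speg for the member that differed between groups. Capitals mark E-boxes (CANNTG, the binding motif of Myod1 and Myog), MEF2 motifs and CArG boxes (the motif of serum response factor), searched on both strands. Only exact matches are marked. The MEF2 pattern was YTAWWWWTAR, where Y is C or T, W is A or T and R is A or G. Windows read 5′ to 3′ along the gene.
Myog, chr1:134289754-134290053, plus strand: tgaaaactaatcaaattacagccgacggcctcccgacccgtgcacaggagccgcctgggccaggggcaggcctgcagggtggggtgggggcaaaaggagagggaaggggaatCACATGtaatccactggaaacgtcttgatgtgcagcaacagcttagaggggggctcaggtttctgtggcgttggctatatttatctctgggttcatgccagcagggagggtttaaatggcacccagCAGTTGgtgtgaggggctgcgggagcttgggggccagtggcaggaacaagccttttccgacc
Acta1, chr8:123894726-123895025, minus strand: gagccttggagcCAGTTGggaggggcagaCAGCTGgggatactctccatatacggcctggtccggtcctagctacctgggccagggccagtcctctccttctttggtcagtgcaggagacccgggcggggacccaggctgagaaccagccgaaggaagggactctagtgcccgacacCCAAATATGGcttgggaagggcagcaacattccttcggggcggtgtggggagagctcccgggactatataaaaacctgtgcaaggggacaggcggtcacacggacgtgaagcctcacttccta
Myh4, chr11:67237562-67237861, plus strand: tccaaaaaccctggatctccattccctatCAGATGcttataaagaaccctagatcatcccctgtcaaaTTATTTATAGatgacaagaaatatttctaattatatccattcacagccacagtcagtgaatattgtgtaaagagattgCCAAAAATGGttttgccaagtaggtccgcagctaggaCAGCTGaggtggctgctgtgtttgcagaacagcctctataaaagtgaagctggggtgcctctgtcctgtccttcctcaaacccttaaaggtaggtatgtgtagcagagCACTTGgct
Speg, chr1:75375047-75375346, plus strand: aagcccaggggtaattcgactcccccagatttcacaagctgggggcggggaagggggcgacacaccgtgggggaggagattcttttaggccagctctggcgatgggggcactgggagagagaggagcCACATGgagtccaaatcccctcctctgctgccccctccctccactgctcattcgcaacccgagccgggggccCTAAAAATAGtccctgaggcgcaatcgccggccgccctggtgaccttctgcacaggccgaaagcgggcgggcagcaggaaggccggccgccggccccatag

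The Myog window held E-boxes whose first bases lie at -138 and -12 from the start. Its stretch ctatatttat departs from the MEF2 pattern only in the last base and is therefore not marked or counted. The Acta1 window held E-boxes at -238 and -221 and a CArG box at -73. The Myh4 window held E-boxes at -221, -67 and 41, a MEF2 motif at -182 and a CArG box at -104. The printed Speg window, the most upstream of 4 for this gene, held an E-box at -123 and a MEF2 motif at -51. Over all 37 windows, 32 (86.5%) held CANNTG, beside 72.3% of the 32851 windows of all genes. The narrower form CAGCTG, which also counts as CANNTG, was in 18 windows (48.6%) beside 16.3% of all. A MEF2 motif was in 7 windows (18.9%, beside 3.19%), a CArG box in 3 (8.11%, beside 1.63%) and the M-CAT element CATTCC in 12 (32.4%, beside 14.7%). These are letter matches in short windows and were not tested.

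Transcripts of mature muscle fibers were high in some glands and tumors and low in others of the same labelled group. The 13 fast-fiber genes of the list (Actn3, Myh1, Myh2, Myh4, Myl1, Mylpf, Tnnt3, Tnni2, Tnnc2, Atp2a1, Casq1, Pvalb and Myoz1) summed to 2954 TPM in gland 392 and 443 TPM in gland 133, but to 9.15 and 7.18 TPM in glands 417_3 and 517_3. In the carcinosarcomas the same sum was 962 TPM in tumor 567, 139 TPM in tumor 897 and 54.7 TPM in tumor 64. In the Trim24COE carcinomas it was 357 TPM in tumor 89, 191 TPM in tumor 3956 and 29.0 TPM in tumor 273_5. The non-TRIM24 tumors held 14.9 (219), 78.1 (FVB001) and 40.4 TPM (FVB002), and most of the sum in FVB001 was 1 gene, Myl1. Glands thus held both the highest and the lowest of these sums among the 13 mice, and the 6 Trim24COE tumors lay between them. In whole tissue, fewer muscle cells and less RNA per muscle cell cannot be told apart.

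**Figure D1:**
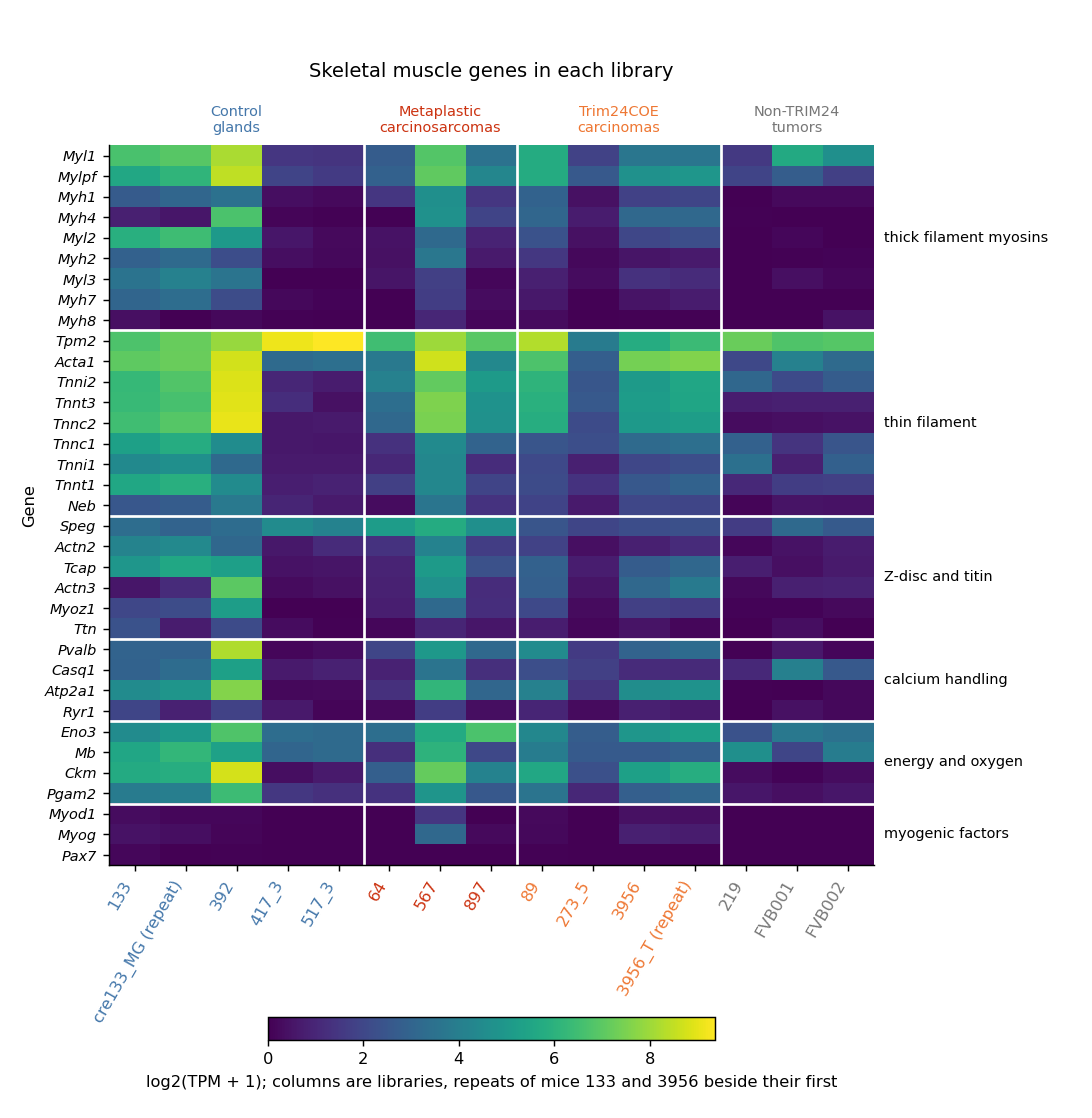
Heat map of log2(TPM + 1) for the 35 skeletal muscle genes (rows, by role) in the 15 libraries (columns, by group, repeat libraries beside the first library of the same mouse). Glands 133 and 392 and tumor 567 are bright over most rows, glands 417_3 and 517_3 and the non-TRIM24 tumors are dark except for Tpm2 and a few others, and Myog stands out in tumor 567 alone.

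The number of members at 1 TPM or more was highest in glands 133 and 392 and tumor 567. It was 33 of 35 in tumor 567, 31 in gland 392 and 29 in gland 133, against 10 and 9 in glands 417_3 and 517_3. Among the other tumors it was 25 in 897, 27 in 89, 26 in 3956, 19 in 64 and 17 in 273_5, and in the non-TRIM24 tumors it was 11 or 12. For 18 of the 35 members the 3 highest mice were 133, 392 and 567, which held for 0.69% of the 20580 genes that reached 1 TPM in any mouse. These 3 mice were named from the members' own values, so the contrast is a description and not a test. The highest mouse was gland 392 for 18 members, gland 133 for 9, tumor 567 for 7 and gland 517_3 for Tpm2 alone.

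Within groups the members therefore varied more than other genes. Over the 28 members that passed the filter for low values in the comparison of tumors and glands, the median SD of log2(TPM + 1) was 2.51 among the 4 glands and 1.53 among the 6 Trim24COE tumors, beside medians of 0.476 and 0.48 over the 15196 genes tested. All 28 had an SD above the median of the tested genes in each of these 2 groups. Between the first and the repeat library of the same mouse, members at 1 TPM or more in either were compared on the log2(TPM + 1) scale. In gland 133, 2 of 30 such members moved by over 1 unit, Ttn from 4.19 to 0.65 TPM and Ryr1 from 2.86 to 0.83 TPM, beside 12.3% of all genes. In tumor 3956 it was 0 of 27, beside 4.82% of all genes. The median member was 0.35 higher in the repeat of gland 133 and 0.19 higher in the repeat of tumor 3956.

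Among the thin filament genes the values of Acta1, skeletal muscle alpha actin (chr8:123891769-123894751, GRCm38, minus strand), showed the pattern at high levels. Acta1 was at 130.03 TPM in gland 133, 421 in gland 392, 8.54 in gland 417_3 and 9.60 in gland 517_3. In the MpCS tumors Acta1 was at 12.8 TPM in 64, 413 in 567 and 19.7 in 897. In the carcinomas it was at 108 TPM in 89, 5.99 in 273_5 and 169.6 in 3956. These ranges overlapped almost fully, and tumor 567 nearly reached the level of gland 392. In the non-TRIM24 tumors Acta1 was at 3.07, 16.5 and 8.34 TPM in 219, FVB001 and FVB002, below glands 133 and 392 and around the levels of the other glands.

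Tpm2, beta tropomyosin, ran against the other thin filament genes. It was at 566 and 659 TPM in glands 417_3 and 517_3, where fiber transcripts were lowest, and at 105 and 244 TPM in glands 133 and 392. Tpm2 was at 88.7, 253 and 125 TPM in tumors 64, 567 and 897 and at 308, 13.97 and 54.2 TPM in tumors 89, 273_5 and 3956. In the non-TRIM24 tumors it lay between 108 and 149 TPM. Smooth muscle and myoepithelial cells also use beta tropomyosin. The 9 smooth muscle and myoepithelial markers summed to 4577 and 4640 TPM in glands 417_3 and 517_3, to 403 and 560.3 TPM in glands 133 and 392, and to 2612 TPM in tumor 89. Among them Acta2, smooth muscle alpha actin, was at 1413 and 1498 TPM in glands 417_3 and 517_3 and at 157 and 185 TPM in glands 133 and 392, and the smooth muscle myosin Myh11 was at 340.4 and 235 TPM against 17.8 and 21.4 TPM. In the Trim24COE tumors against glands 3 of the 9 markers were called lower. Tpm2 thus moved with these markers across the glands. The part of these cells in its level was not tested.

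The other 7 thin filament members were the 6 skeletal troponin genes and Neb, which encodes nebulin, the ruler of the thin filament. Their highest values were 528 TPM for Tnnc2, 490 for Tnnt3 and 471 for Tnni2, the fast troponins C, T and I, all in gland 392. These and the following fiber isoform genes were chosen after their values were seen. In glands 417_3 and 517_3 none of the 7 was above 1.31 TPM.

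**Figure D2:**
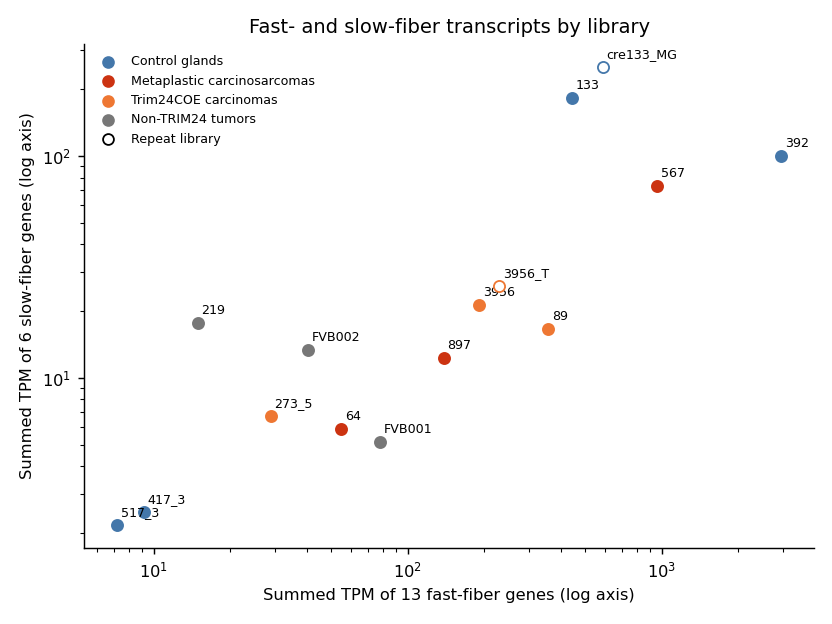
Summed TPM of the 13 fast-fiber genes (x, log axis) against summed TPM of the 6 slow-fiber genes (y, log axis) in each library, colored by group, open circles for repeat libraries. Gland 133 and its repeat lie highest on the slow axis, gland 392 farthest along the fast axis, and glands 417_3 and 517_3 lowest on both.

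The isoforms showed that the muscle transcripts of different mice were not the same mixture. The 6 slow-fiber genes (Myh7, Myl2, Myl3, Tnnt1, Tnni1 and Tnnc1) summed to 183 TPM in gland 133, 100.1 TPM in gland 392 and 73.0 TPM in tumor 567, and to 21.4 TPM or less in the first libraries of the other mice. The ratio of the fast to the slow sum was 2.42 in gland 133 and 29.5 in gland 392. The repeat library of gland 133 gave 2.32. Among the Trim24COE tumors this ratio was 13.2 in 567, 11.3 in 897, 9.34 in 64, 21.4 in 89, 8.92 in 3956 and 4.31 in 273_5. Gland 133 was thus rich in slow fiber transcripts and gland 392 in fast ones, while the tumors with more fiber RNA lay between them.

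Each troponin pair showed the same contrast between these 2 glands. Tnni2, the fast troponin I, made up 78.9% of Tnni2 and Tnni1 together in gland 133 and 98.3% in gland 392. Tnnt3 made up 62.6% of Tnnt3 and Tnnt1 in gland 133 and 95.7% in gland 392. Tnnc2 made up 69.3% of Tnnc2 and Tnnc1 in gland 133 and 95.9% in gland 392. In tumor 567 the 3 fast shares were 87.7%, 90.6% and 89.4%. In the non-TRIM24 tumors, where both members of each pair were low, the fast share of troponin C was 3.41% in 219, 15.2% in FVB001 and 7.57% in FVB002. In tumor 219 the 2 slow genes Tnni1 (10.1 TPM) and Tnnc1 (6.51 TPM) were above 5 TPM while Tnnt1 was at 1.09 TPM, so the slow troponins did not go together there.

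Of the thick filament genes, Myl1 and Mylpf encode light chains of fast fibers. Myl1 was at 100.5, 285, 1.78 and 1.67 TPM in glands 133, 392, 417_3 and 517_3. Myl1 was at 5.62, 115 and 10.5 TPM in tumors 64, 567 and 897 and at 53.6, 2.57 and 11.9 TPM in tumors 89, 273_5 and 3956. In the non-TRIM24 tumors Myl1 was at 1.97 TPM in 219 but at 50.5 in FVB001 and 24.6 in FVB002. In those 2 tumors it stood apart from its partner Mylpf, which was at 5.72 and 2.41 TPM. In the glands and the Trim24COE tumors Mylpf went with Myl1, at 47.7, 353, 2.83 and 2.01 TPM in glands 133, 392, 417_3 and 517_3, at 6.55, 136 and 18.9 TPM in tumors 64, 567 and 897, and at 52.8, 5.20 and 25.5 TPM in tumors 89, 273_5 and 3956. FVB001 and FVB002 also held the highest and the third highest sum of the 10 adipocyte markers of the 13 mice (55136 and 27860 TPM), and their part in the Myl1 level was not tested. Of the words of 50 bases in Myl1 transcripts, 11.7% also occurred in other genes, most of them in the pseudogene Mylf-ps.

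The myosin heavy chains, the motors of the filament, had lower TPM in sum than the light chain Mylpf in every first library. The sum of the adult forms Myh1, Myh2, Myh4 and Myh7 was 120.3 TPM in gland 392, 64.0 TPM in tumor 567 and 20.1 TPM in gland 133, and it was 0.79 TPM or less in glands 417_3 and 517_3 and in all non-TRIM24 tumors. Myh4, the fastest form, made up 85.6% of this sum in gland 392 (103 TPM) and 3.88% in gland 133 (0.78 TPM), whereas the slow form Myh7 made up 2.96% and 36.6%. In tumor 567 Myh1 and Myh4 took 37.8% and 39.7%, and Myh2 19.0%. The split between these genes is less certain than their sum, since 25.4% of the 50-base words in Myh1 transcripts, 22.9% in Myh2, 18.9% in Myh4 and 15.6% in Myh7 also occurred in transcripts of other genes. Myh8, the perinatal form, reached 1.00 TPM in tumor 567 and was at 0.37 TPM or less in the first libraries of the other mice.

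In the Z-disc group Actn2, alpha-actinin of the Z-disc, followed the fiber pattern, at 17.4, 7.73, 0.51 and 1.24 TPM in glands 133, 392, 417_3 and 517_3. Actn2 was at 1.56, 16.7 and 2.28 TPM in tumors 64, 567 and 897, at 2.61, 0.29 and 0.76 TPM in tumors 89, 273_5 and 3956, and at 0.65 TPM or less in the non-TRIM24 tumors. Its paralog Actn3, which is found in fast fibers, was at 128 TPM in gland 392 and 0.50 TPM in gland 133. The titin cap gene Tcap and the calsarcin gene Myoz1 ranged from 0.30 to 38.3 TPM and from 0 to 36.2 TPM over the 13 mice, and Ttn, which encodes titin, stayed at or under 4.19 TPM. Speg, the last member of this group, behaved differently and is described with the comparisons.

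Of the calcium genes, Pvalb (parvalbumin, a calcium buffer of fast fibers) was at 307 TPM in gland 392 but at 6.96 TPM in gland 133 and at 0.13 and 0.23 TPM in glands 417_3 and 517_3. Pvalb was at 2.88, 31.2 and 7.87 TPM in tumors 64, 567 and 897 and at 21.8, 2.04 and 6.91 TPM in tumors 89, 273_5 and 3956. It was at 0.55 TPM or less in the non-TRIM24 tumors. Casq1 (calsequestrin of the sarcoplasmic reticulum) was at 6.68, 39.0, 0.59 and 0.81 TPM in glands 133, 392, 417_3 and 517_3, and at 0.86 to 11.1 TPM in the 6 Trim24COE tumors. Like Myl1, Casq1 stood above the other genes of its group in FVB001 (15.9 TPM) and FVB002 (5.06 TPM), whereas Atp2a1, the fast calcium pump, was at 0.15 TPM or less in all 3 non-TRIM24 tumors.

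In the energy group the muscle enolase Eno3 was at 21.6, 110.2, 9.07 and 8.37 TPM in glands 133, 392, 417_3 and 517_3. Eno3 was at 9.46, 51.9 and 104.8 TPM in tumors 64, 567 and 897, and at 19.4, 5.86 and 29.6 TPM in tumors 89, 273_5 and 3956. Tumor 897 thus held about as much Eno3 as gland 392 while its fast-fiber sum was 139 TPM, against 2954 TPM in that gland. The non-TRIM24 tumors had 4.15 to 12.6 TPM. Mb, which encodes the oxygen-binding protein myoglobin, was at 45.4, 40.1, 7.33 and 8.42 TPM in glands 133, 392, 417_3 and 517_3 and at 1.37, 65.9 and 3.12 TPM in tumors 64, 567 and 897. It was at 14.3, 5.28 and 5.24 TPM in tumors 89, 273_5 and 3956 and, with almost no myosin heavy chain beside it, at 24.6, 2.85 and 14.4 TPM in tumors 219, FVB001 and FVB002. Ckm (muscle creatine kinase) and Pgam2 (muscle phosphoglycerate mutase) kept to the fiber pattern and were at 0.24 and 0.49 TPM or less in the non-TRIM24 tumors.

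**Figure D3:**
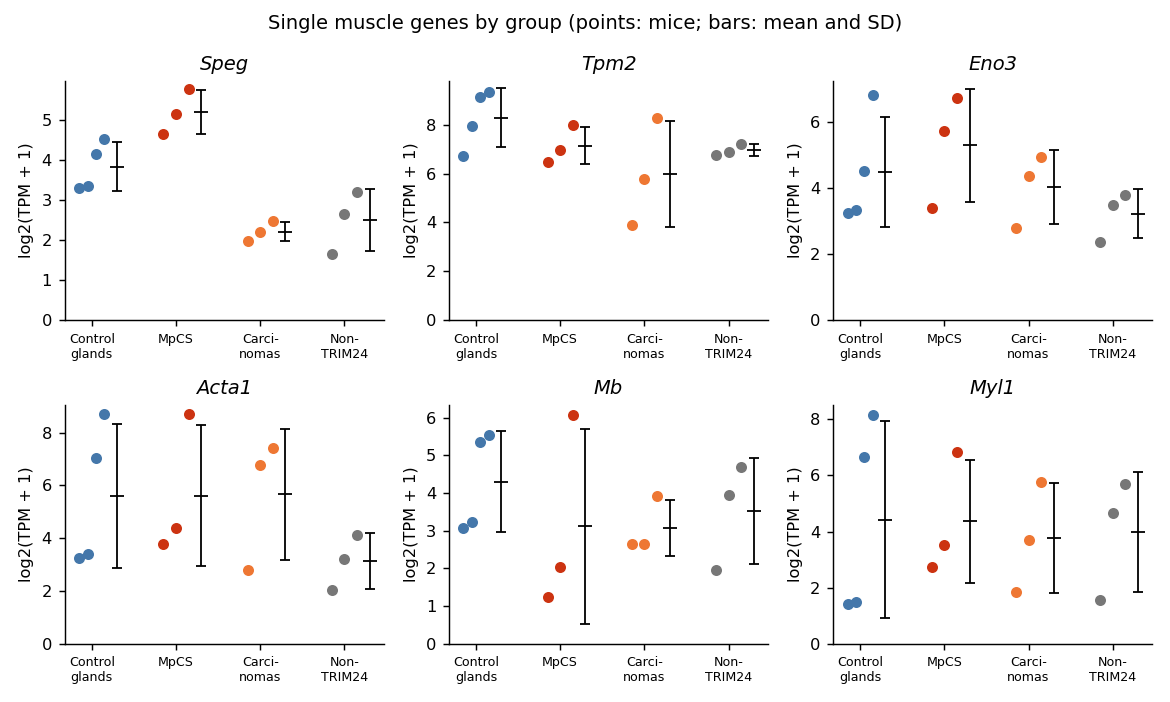
log2(TPM + 1) of Speg, Tpm2, Eno3, Acta1, Mb and Myl1 in the first library of each mouse (points), by group, with the group mean and SD as bars. The 3 MpCS points of Speg lie above all other groups, while the points of the other 5 genes spread widely and overlap between glands and Trim24COE tumors.

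The levels of the 3 myogenic factors were not in proportion to the amount of fiber RNA. The mice with more than 0.02 TPM of Myog were, however, those with the highest fast-fiber sums. Myog (myogenin, chr1:134289989-134292548, GRCm38, plus strand) was at 8.04 TPM in tumor 567, although gland 392, with a fast-fiber sum of 2954 TPM, had 0.09 TPM. Myog was at 0.38, 0 and 0.02 TPM in glands 133, 417_3 and 517_3, at 0 and 0.19 TPM in tumors 64 and 897, and at 0.16, 0 and 0.77 TPM in tumors 89, 273_5 and 3956. It was listed at 0 in all 3 non-TRIM24 tumors. Per 1000 TPM of the fast-fiber sum, Myog was at 8.36 TPM in tumor 567 and 4.03 TPM in tumor 3956 (2.79 TPM in its repeat library), at 1.37 in 897 and 0.449 in 89, and at 0.858 and 0.0305 TPM in glands 133 and 392. In gland 517_3 the ratio was 2.79, from a Myog level of 0.02 TPM.

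Myod1 was likewise highest in tumor 567 and next in tumor 3956, at 1.80 and 0.34 TPM, was at 0.23, 0.13, 0.02 and 0 TPM in glands 133, 392, 417_3 and 517_3, and at 0.19 TPM or less in the other tumors. Pax7, the satellite cell factor, was at 0.12 TPM in the first library of gland 133 but at 0 TPM in its repeat library. It was at 0.05 TPM or less in each of the other first libraries, tumor 567 (0.02 TPM) included. None of the 3 factors passed the filter for low values, so no test across all genes was made for them. By an exact two-sided permutation test on log2(TPM + 1), 6 Trim24COE tumors against 4 glands, the mean difference was 0.59 for Myog (p = 0.419) and 0.24 for Myod1 (p = 0.590), so the groups were not separated by either factor.

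**Figure D4:**
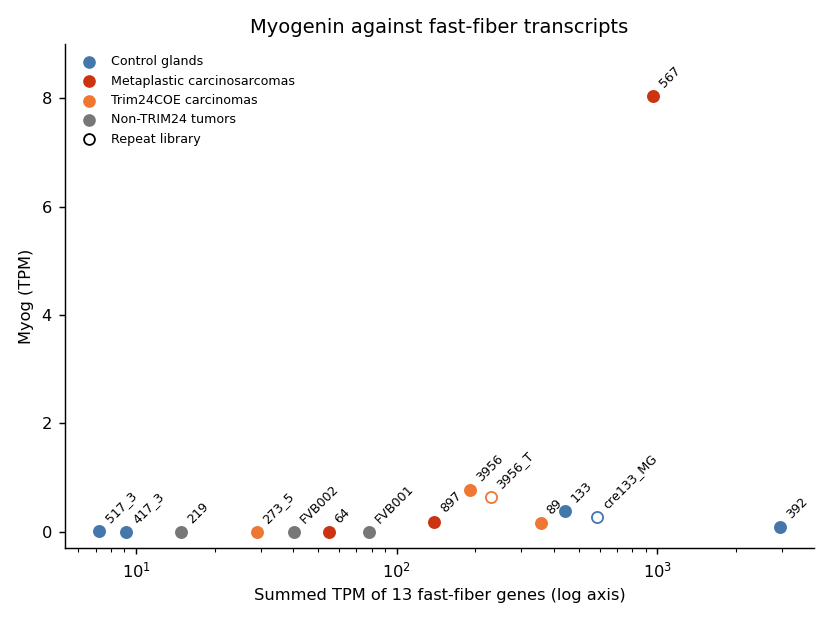
Myog level in TPM (y) against the summed TPM of the 13 fast-fiber genes (x, log axis) in each library, colored by group, open circles for repeat libraries. Tumor 567 stands alone at 8.04 TPM, and gland 392, farthest to the right, lies at 0.09 TPM.

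Some other myogenic, fusion and immature muscle genes outside the list were, like Myog, highest in tumor 567. Myf6, a factor of late differentiation, was at 4.65 TPM in tumor 567, 1.91 TPM in tumor 3956, 0.98 and 0.52 TPM in glands 133 and 392 and 0.63 TPM or less in the others. Mymk (myomaker, which acts in the fusion of myoblasts) was at 1.77 TPM in tumor 567 and at 0.09 TPM or less in the first libraries of the other mice. The embryonic myosin Myh3 was at 1.42 TPM in tumor 567 and at 0.06 TPM or less in the others. Myf5 was at 0.12 TPM in tumor 567 and highest, at 0.63 TPM, in the first library of gland 133. The repeat library of that gland listed Myf5 at 0 TPM, so this value was not found again. Of a list of 15 progenitor, fusion and immature muscle genes, 13 were higher in tumor 567 than in gland 392 and 9 had their highest level of all 13 mice in tumor 567, whereas 8 of the 32 mature members were higher in tumor 567 than in gland 392. The list of 38 other mature fiber genes did not follow the mature members in this, with 21 higher in tumor 567 than in gland 392 and 19 highest of all 13 mice in tumor 567. Over all genes at 1 TPM or more in any mouse, 45.3% were higher in tumor 567 than in gland 392 and 6.81% were highest in tumor 567. These are counts from 1 tumor and 1 gland, with no test. Of the 15 progenitor, fusion and immature muscle genes, 8 were at 1 TPM or more in tumor 567 and 2 in gland 392. Many of their values thus lay near the floor, and the lists were not held to 1 TPM as the set of all genes was.

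The study asked how tumors that overproduce TRIM24 differ from control glands, and for the 35 muscle genes no member passed the test across all genes. In the comparison of 6 Trim24COE tumors with 4 control glands, limma on log2(TPM + 1) called 0 of the 28 members tested at an adjusted p of 0.05, beside 17.1% of the 15196 genes tested. At an unadjusted p of 0.05 the count was also 0, beside 32.6% of all genes. The fitted log2 fold changes ran from -1.73 to 0.79 with a median of -0.18, beside -0.037 over all genes, and 13 members lay above and 15 below 0. Tpm2 was lowest (-1.73, SE 0.81, adjusted p = 0.164) and Acta1 was at 0.03 (SE 1.35, adjusted p = 0.991). The standard errors of the members, 0.724 to 1.64 with a median of 1.00, stood beside a median of 0.334 over all genes and were thus wider than for most genes. Not tested for low values were Myh7, Myh8, Myod1, Myog, Pax7, Ryr1 and Ttn. The median of the members turned positive with some settings, among them a pseudocount of 0.1 TPM (0.01), an adipocyte covariate (1.82) and without gland 392 (0.76).

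Of the list of 38 other mature fiber genes, 27 were tested and only Jph1 was called. Jph1, junctophilin 1, which ties the cell membrane to the sarcoplasmic reticulum, was at 1.25, 2.01, 1.98 and 1.19 TPM in glands 133, 392, 417_3 and 517_3. It was at 0.15, 1.03 and 0.23 TPM in tumors 64, 567 and 897 and at 0.59, 0.09 and 0.42 TPM in tumors 89, 273_5 and 3956, all below the lowest gland. Jph1 fell by 0.90 on the log2 scale (SE 0.24, adjusted p = 0.0249). Among the glands its level did not follow the fiber genes, being about as high in gland 417_3 as in gland 392. Among the Trim24COE tumors it had the same order as the fast-fiber sum, highest in 567 and lowest in 273_5. The call was lost without gland 392 (adjusted p = 0.0693), gland 417_3 (0.0718) or tumor 64 (0.0522). Of the 15 progenitor and immature muscle genes 2 were tested and 0 were called.

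Between the MpCS tumors and the control glands the comparison addresses the class of tumor with a sarcoma component. Of 30 members tested 1 was called, Speg, beside 23.0% of 15287 genes. Speg (chr1:75375297-75432320, GRCm38, plus strand) encodes a protein kinase of the obscurin and myosin light chain kinase family that is found in striated muscle at the junction of sarcomere and reticulum, and the same locus has a smooth muscle form. It was at 34.8 TPM in tumor 64, 53.9 TPM in tumor 567 and 24.4 TPM in tumor 897, and at 9.15, 8.87, 22.2 and 16.9 TPM in glands 133, 392, 417_3 and 517_3. All 3 tumors were above all 4 glands, and tumor 64, with a fast-fiber sum of 54.7 TPM, was above both fiber-rich glands. Speg rose by a log2 fold change of 1.37 (SE 0.41, limma adjusted p = 0.0456). The exact two-sided permutation test gave p = 0.0571, the smallest that 3 against 4 mice can give. The call was lost without gland 133 (adjusted p = 0.0898), 392 (0.0869) or 517_3 (0.0665), and without tumor 64 (0.138), 567 (0.160) or 897 (0.0576), always with the same direction.

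The other 29 members tested did not pass in this comparison. Over all 30 the fitted log2 fold changes ran from -1.41 to 1.37 with a median of 0.07, beside -0.12 over all genes, and their median standard error was 1.3, beside 0.354 over all genes. The median was -0.595 with glands 417_3 and 517_3 averaged as 1 sample and -0.93 without tumor 567, so its direction changed with the samples used. With the mean of the adipocyte markers as a covariate, 17 members were called, 16 higher and 1 lower, and Speg was no longer among them (log2 fold change 0.67, adjusted p = 0.268). In that fit the 2 glands with much fiber RNA were also the 2 with high adipocyte markers, so the covariate and the fiber level of the glands cannot be told apart.

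Against the 3 Trim24COE carcinomas the MpCS tumors again differed in Speg alone, 1 of 26 members tested, beside 0.698% of 14193 genes. The carcinomas had 4.53 TPM (89), 2.91 TPM (273_5) and 3.64 TPM (3956) of Speg, all below the lowest MpCS tumor and below the lowest gland. The log2 fold change was 2.99 (SE 0.35, limma adjusted p = 0.0196), and the exact two-sided permutation test gave p = 0.1, the smallest possible with 3 against 3. The call was lost without tumor 64 (adjusted p = 0.142), 567 (0.0614), 897 (0.0600), 89 (0.0855) or 273_5 (0.0501), and in each of these fits the log2 fold change was at least 2.698. This comparison shares its MpCS tumors with the one against glands. The non-TRIM24 tumors had 2.15, 8.17 and 5.34 TPM of Speg in 219, FVB001 and FVB002, so the MpCS tumors were the highest of the 13 mice.

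The remaining 25 members did not pass between the tumor classes. The fitted log2 fold changes of all 26 ran from -0.09 to 2.99 with a median of 0.43, beside -0.10 over all genes. Their median standard error was 1.02. The median was -0.51 without tumor 567 and -0.18 without tumor 273_5, so its direction rested on single tumors.

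The non-TRIM24 tumors addressed whether spontaneous tumors without the transgene differ from control glands in the same genes. They were compared in a fit of all 15 libraries with the sequencing batch as a term, since all 3 lie in the second batch and the only glands and Trim24COE tumors there are the repeats of 133 and 3956. Of 30 members tested 0 were called at an adjusted p of 0.05, beside 0.107% of 16775 genes. At an unadjusted p of 0.05, 14 members passed, all of them lower in the tumors, beside 10.7% of all genes in either direction and 6.96% in the lower direction. All 30 had a fitted log2 fold change below 0, from -5.81 to -0.15 with a median of -2.69, beside -0.21 over all genes. For Acta1 the value was -4.22 (adjusted p = 0.464), and without the batch term the median over the members was -1.80. This fit takes the repeats as libraries of their own, so 13 mice enter as 15 samples. It has no term for the mouse, so the batch term partly sets the repeat of fiber-rich gland 133 against the first libraries of all 4 glands. Batch and the fiber content of mouse 133 thus cannot be fully told apart in this fit. Between the 2 libraries of mouse 133 the median member was 0.35 higher in the repeat, and 0.19 higher in that of tumor 3956. With the repeats linked by duplicateCorrelation the median over the members was -1.85, Acta1 was at -2.74 (adjusted p = 0.341) and 9 members passed at an unadjusted p of 0.05. With mouse 133 left out of the main fit, 0 members passed at that threshold and 25 of the 28 tested were fitted below 0. With any other single mouse left out, 8 to 17 passed. The fast-fiber sums of glands 417_3 and 517_3 were below those of all 3 non-TRIM24 tumors, although Myl1 made up most of these sums in FVB001 and FVB002. In 7 members (Myl2, Tnnc2, Pgam2, Neb, Ckm, Myh2 and Myh7) all 3 tumors were below all glands, beside 19.9% of the genes tested. In glands 417_3 and 517_3 Pgam2 was at 1.87 and 1.47 TPM against 0.29 to 0.49 TPM in the tumors, and the other 6 were under 1 TPM in both of these glands.

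Markers of other tissues were read beside the muscle genes in the same libraries. The 10 adipocyte markers summed to 25947 and 38723 TPM in glands 133 and 392, which held much fiber RNA, and to 1774 and 1962 TPM in glands 417_3 and 517_3, which held little. In gland 392 Adipoq (adiponectin) was at 1946 TPM and Plin1 (perilipin of fat droplets) at 499.6 TPM. Tumor 567, the tumor richest in fiber RNA, had an adipocyte sum of 235 TPM, with Adipoq at 10.0 and Plin1 at 2.48 TPM. Within the non-TRIM24 tumors FVB001 and FVB002, the tumors with the highest adipocyte sums, also had the higher fast-fiber sums (78.1 and 40.4 TPM, most of it Myl1), while their slow-fiber sums (5.16 and 13.3 TPM) were below that of tumor 219 (17.7 TPM). In the Trim24COE tumors against glands, all 10 were fitted lower and 3 were called. Brown fat markers summed to 1484 TPM in gland 133, 515 in gland 392, 710.4 in tumor 89 and 284 in tumor 273_5, with Ucp1 at 139, 7.58, 135 and 73.2 TPM and Cidea at 162, 32.5, 121 and 41.0 TPM there, and to 7.98 and 7.59 TPM in glands 417_3 and 517_3. None of the 4 brown fat markers tested was called. The part of fat and of the tissue around it in the fiber levels was not tested.

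Heart muscle, which shares Myh7, Myl2, Myl3 and Tnnc1 with slow fibers, was represented by 5 markers. Its genes Myh6 and Nppa were at 1.18 and 0.33 TPM or less in the first libraries of all mice. Myh6 was highest in gland 133 (1.18 TPM, 1.60 TPM in its repeat library), the gland with the most slow-fiber RNA. Next were gland 392 (0.68 TPM) and tumor 567 (0.42 TPM). Of 2 tested 1 was called higher in Trim24COE tumors, the cardiac troponin T gene Tnnt2 (log2 fold change 2.88, SE 0.78, limma adjusted p = 0.0289), and 1 lower. The sum of the 5 was 195 TPM in tumor 3956, of which 194 TPM was Tnnt2 alone (named after its values were seen), and 5.47 to 29.0 TPM in the other first libraries. The nerve markers summed to 21.9, 94.2, 108 and 93.9 TPM in glands 133, 392, 417_3 and 517_3 and to 4.99 to 16.1 TPM in the Trim24COE tumors, with Mbp at 14.5 to 60.6 TPM and 2.76 to 13.8 TPM. All 4 nerve markers tested were called lower in the tumors. The tendon markers summed to 4.89 to 15.9 TPM in glands and 39.4 to 96.8 TPM in Trim24COE tumors, of which Scx (scleraxis) was called higher, with 94.6 TPM in tumor 64, while Tnmd was at 0.81 TPM or less in the tumors. Tumor 567 was not the highest for either of these 2 tendon genes. Among the other tendon markers, read after their values were seen, Thbs4 was highest in tumor 89 (25.3 TPM) and next in tumor 567 (10.9 TPM). Chad was highest in tumor 89 (8.32 TPM) and Mkx in gland 417_3 (2.27 TPM).

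Epithelial markers summed to 721 to 4157 TPM in glands, 284 to 1410 TPM in MpCS tumors and 2331 to 5779 TPM in the Trim24COE carcinomas. Of the 5, 0 were called between all Trim24COE tumors and glands, and 3, Epcam among them, were called lower in the MpCS tumors than in glands. Epcam was at 2.73 to 36.4 TPM in the MpCS tumors against 153 to 661 TPM in glands, and Krt8 at 130.2 to 914 TPM against 158 to 1291 TPM. Epidermis markers summed to 4.91 to 17.9 TPM in glands and Trim24COE tumors, with Krt1 at 0.42 TPM or less and Krt10 at 4.35 to 17.7 TPM, and none was called. Lymphocyte markers summed to 12.3 to 51.8 TPM in glands and 1.21 to 15.1 TPM in Trim24COE tumors, with 4 of 5 called lower, among them Cd3e, while Cd3d was not. None of the nerve, skin or lymphocyte sums separated glands 133 and 392 from glands 417_3 and 517_3 the way the fiber genes did. The epithelial sum separated them in the opposite direction, at 721 and 1260 TPM in glands 133 and 392 against 3899 and 4157 TPM. The tendon sum did so too, at 4.89 and 6.59 TPM against 14.9 and 15.9 TPM.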

How the data were processed

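Total RNA from whole glands and tumors was sequenced, and the authors deposited 2 tables of TPM, 1 per sequencing batch. According to the study's methods, reads were trimmed, aligned with STAR to GRCm38 and quantified with RSEM on GENCODE annotation. The submitters' processing notes also name TopHat and Cufflinks and give the build as mm10. The labels and the methods name different RNA and library kits. TPM keeps no read depth, so no counting error could be given and no count test was run. Every column was assigned to a sample, and all columns sum to the same total within rounding.

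Values were tested with limma 3.58.1 in R 4.3.3 on log2(TPM + 1), with a variance trend, over genes that reached 1 TPM in a number of libraries equal to the size of the smaller group. P-values were two-sided, adjusted by Benjamini-Hochberg over all genes tested, with a threshold of 0.05. Fold changes are on the log2(TPM + 1) scale, which understates changes of low genes. The first library of each mouse was used, except in the fit with the batch term, which took all 15 libraries and counted the repeats of mice 133 and 3956 as libraries of their own. Each mouse is 1 sample. The scripts were tested on simulated data. Exact permutation tests were made in scipy 1.17.1. Coordinates are from GENCODE M21 on GRCm38.

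The members and lists were chosen with earlier results of these data known. Values are given for members past the threshold in any of the 4 comparisons, for the 3 myogenic factors and for the 2 members of each role group with the highest median TPM. Values are also given for Jph1, the only gene called in the other muscle lists, for Myf5, Myf6, Myh3 and Mymk, for the first 2 markers of each cell type and for Trim24. For the nerve list 1 of these is not reported here. Other genes were singled out after their values were seen. Alternatives were another pseudocount, no filter, 2 rescalings, the repeat libraries, an adipocyte covariate, all groups of batch 1, no batch term, linked repeats and leaving out each mouse. An average of glands 417_3 and 517_3 was added after seeing the data.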

Additional observations from a re-analysis of the deposited data

Results flagged for a closer look

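The first libraries of the 4 control glands and of the 6 Trim24COE tumors were searched, gene by gene on the log2(TPM + 1) scale, for a mouse that stood apart from the rest by Dixon's criterion, in which the gap to the nearest mouse is divided by the range. The search covered 70 groups of values and found 8, while chance alone gives about 1 in 20, and genes that move together are not separate findings. Among the glands, 392 stood apart for Actn3 (128 TPM, the next gland 0.50 TPM) and Myh4 (103 TPM, the next gland 0.78 TPM), both genes of fast fibers. Among the Trim24COE tumors 567 stood apart for 6 members. For the myogenic factors it had 8.04 TPM of Myog, the next tumor 0.77 TPM, and 1.80 TPM of Myod1, the next tumor 0.34 TPM. For the myosins it had 12.2 TPM of Myh2 (next 1.86 TPM), 2.24 TPM of Myh7 (next 0.51 TPM) and 1.00 TPM of Myh8 (next 0.22 TPM). For Tnni1, the slow troponin I, it had 19.4 TPM (next 3.21 TPM).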

How the results depend on the processing

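No paired analysis was possible because the mouse numbers are not shared between groups. The count of members called was 0 under every alternative in the comparisons of Trim24COE tumors and of non-TRIM24 tumors with control glands. For MpCS tumors against glands the count of 1 became 0 with no filter on low values and with the repeat library, 17 with the adipocyte covariate, and 0 to 1 when a mouse was left out. For MpCS tumors against carcinomas it became 0 with no filter and lay between 0 and 1 when a mouse was left out. Without the filter more genes enter the adjustment, and without a mouse fewer samples enter the fit. The log2 fold change of Speg stayed above 0 in all alternatives, 0.67 to 1.63 against glands (past the threshold in 6 of 15) and 2.698 to 3.26 against carcinomas (6 of 12). Tpm2 in Trim24COE tumors against glands stayed between -2.53 and -1.19 and past the threshold in none of 17. Jph1 in that comparison stayed between -1.95 and -0.82 and past the threshold in 11 of 17, and was lost with no filter (adjusted p = 0.0864), the adipocyte covariate (0.126) and the 2 glands averaged (0.0531). Acta1 in that comparison moved from 0.03 to 2.49 with the adipocyte covariate, turned to -0.036 with median-ratio scaling and -0.72 with glands 417_3 and 517_3 averaged, and the leave-one-mouse-out values ran from -0.75 to 1.07, for which the cause was not tested. Among all tested genes the number called was 18 for non-TRIM24 tumors against glands with the batch term and 1862 without it. TPM values keep no depth, so limits set by depth are unknown.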
